A study of Mus musculus with 21 samples.

Results

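The regions described here are 205 chromatin domains of Th2 cells inside which both embryonic stem (ES) cell libraries place a domain edge. They were chosen from the domain lists themselves. A domain of the first Th2 library was kept when the second Th2 library had a domain whose start and end each lay within 40 kb, which is called replicated below. It was then kept when each of the 2 ES libraries had at least 1 edge inside it, more than 40 kb from both ends. Of the 1961 domains of the first Th2 library, 905 were replicated and 205 of those met the whole rule (22.7% of the replicated domains). The rule used all 4 lists, so this count, the lack of inner edges in Th2 cells and the presence of inner edges in ES cells are descriptions, not results.

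The series combined 3e Hi-C, chromatin immunoprecipitation and RNA sequencing in mouse cells, and the 4 Hi-C libraries of its 21 samples are used here. 3e Hi-C is chromosome conformation capture in which chromatin is cut with a mixture of the restriction enzymes CviQ I, CviA II and Bfa I. The Th2 libraries (2) came from C57BL/6 mice. Naive CD4+ T cells that were CD25-, CD62L high and CD44 low had been sorted from lymph nodes and polarised in culture with IL-4, IL-2 and antibodies against IFNγ and IL-12. The ES libraries (2) came from R1 cells, a line of the strain background 129X1 x 129S1, grown on feeder cells. Strain and cell type therefore cannot be told apart, and the labels do not say whether the libraries of a cell type came from separate cultures or pooled animals. The lists hold no expression values, so the labelled cell types could not be checked against marker genes.

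In a chromatin domain, the DNA folds so that contacts within the segment outnumber contacts with the flanking segments. Many domain edges are bound by CTCF, a zinc-finger protein that halts the loop-extruding cohesin ring, and edges can limit which enhancers reach a promoter. T helper 2 (Th2) cells are the lymphocytes that make IL-4, IL-5 and IL-13, and ES cells are pluripotent, so both differ widely in the genes they express. Each list gives domains on a 40 kb grid, without contact counts, so the sequencing depth and the strength of an edge are unknown.

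The libraries were first compared as a whole. The Th2 lists held 1961 and 1689 domains with a median width of 680 and 840 kb. The ES lists held 1828 and 1833 domains, both with a median of 920 kb. The position 7 Mb was an edge on 15 to 17 of the 20 chromosomes in each of the 4 libraries, and the position 43 Mb on 14 to 16, whereas no other position was an edge on more than 9. Edges at these recurring positions cannot be read as features of single chromosomes. They formed an end of 8 of the 205 domains (3.9%) and of 32 of the 700 other replicated domains (4.57%), and none of the inner ES edges lay there. Without them 197 domains remained.

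Edges of the ES libraries fell inside Th2 domains more often than edges of the other Th2 library did. The ES lists also held more edges, 2887 and 2990 against 2587 and 2568 in the Th2 lists, and the shares were not adjusted for this. Among all 1961 domains of the first Th2 library, 680 (34.7%) had an inner edge of the first ES library and 681 (34.7%) one of the second ES library, against 351 (17.9%) with an inner edge of the second Th2 library. For the 1689 domains of the second Th2 library the counts were 682 (40.4%) and 686 (40.6%) for the ES libraries, against 424 (25.1%) for the first Th2 library. The replicate disagreement of 17.9% to 25.1% is thus the level at which a single library places inner edges in Th2 domains without a change of cell type. Asking for a matching second Th2 domain and for both ES libraries removed many of these. With the first Th2 library left out, 563 domains had inner edges of both ES libraries, and with the second left out 551 did, since no match between Th2 libraries could then be asked. Of the 551 domains with inner edges of both ES libraries, 37.2% were replicated, against 46.1% of all 1961 domains. Among the 905 replicated domains the first ES library had an inner edge in 263 (29.1%) and the second in 265 (29.3%).

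In the opposite direction, inner edges of the Th2 libraries were found in 39.5% and 36.9% of the domains of the first ES library, against 19.8% with an inner edge of the second ES library. For the second ES library the shares were 39.1% and 35.2%, against 19.5% with an inner edge of the first. Replicate disagreement was thus of a like size in both cell types. No test was made of these shares or of those that follow, since there were 2 libraries a cell type, the domains of 1 library are not replicates and the rule rests on the same lists.

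The widest regions show the pattern most plainly. On chromosome 8 both Th2 libraries had a single domain of 8120 kb (chr8:98480001-106600000) and 8080 kb. The first ES library had 2 domains in its place, of 4840 and 2600 kb, with 640 kb between them outside any domain. The second ES library had 2 domains of 4720 and 3200 kb that met 4880 kb from the start of the Th2 domain. Both ES libraries thus ended a domain 4840 or 4880 kb from the start, and they differed in what followed.

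**Figure D1:**
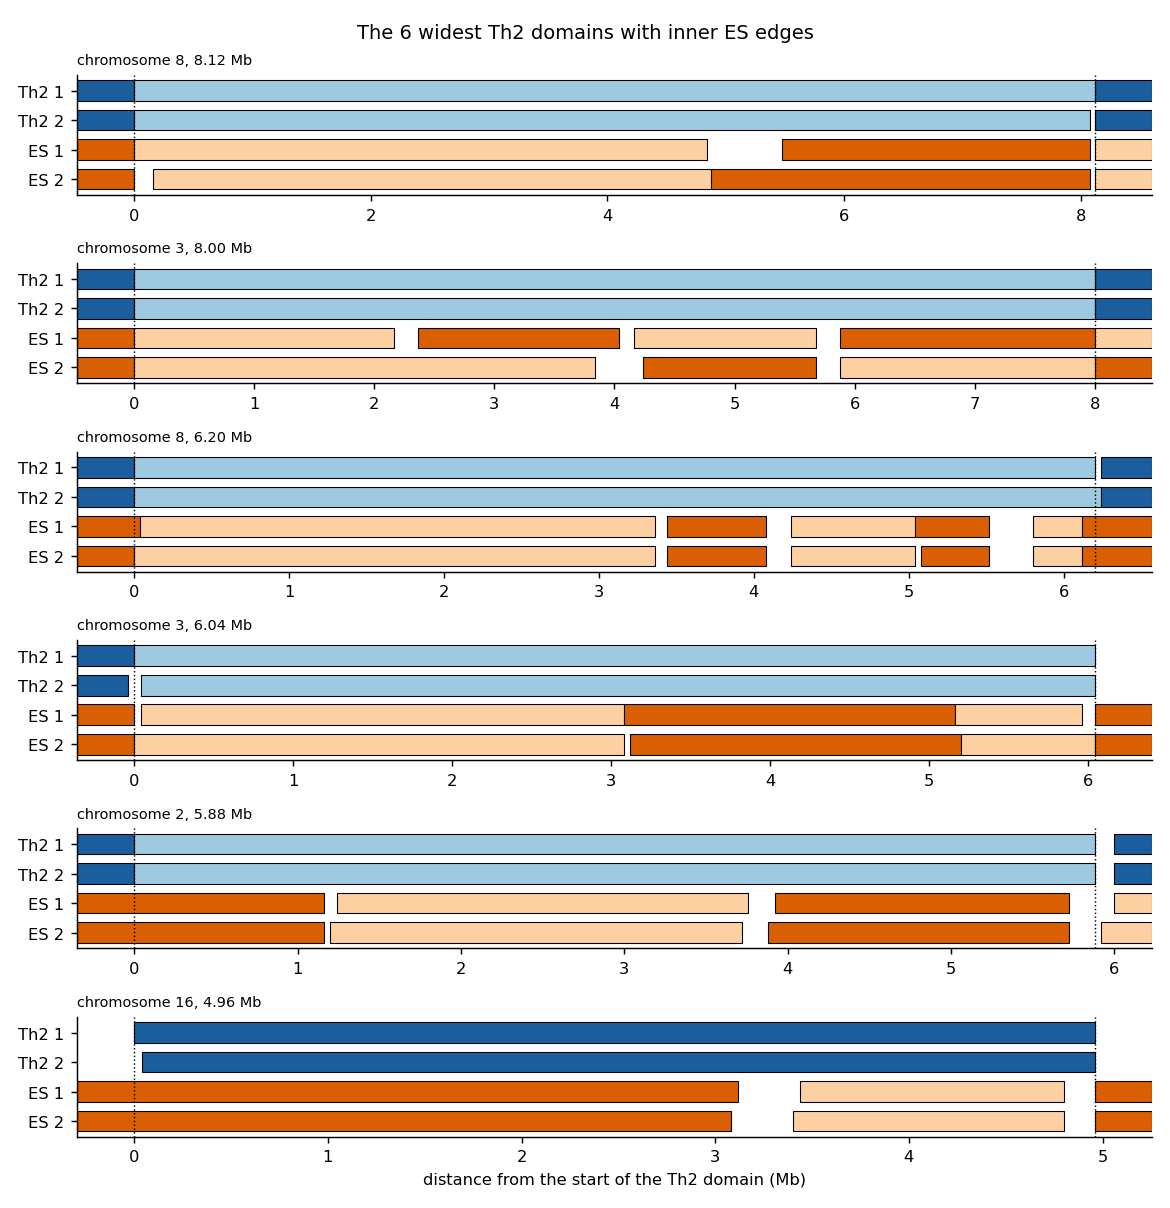
Domains of the 2 Th2 libraries (blue, upper pair of rows) and the 2 ES libraries (orange, lower pair) over the 6 widest Th2 domains with inner ES edges, by distance from the start of the Th2 domain in Mb. Shades alternate between neighbouring domains, blank stretches lie outside any domain and dotted lines mark the ends of the Th2 domain. On the 6200 kb domain of chromosome 8 the 2 ES libraries share 8 inner places.

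On chromosome 3 a Th2 domain of 8000 kb (chr3:43000001-51000000) had the same ends in both Th2 libraries, and its start is one of the recurring positions. The first ES library laid 4 domains of 2160, 1680, 1520 and 2120 kb inside it. The second laid 3, of 3840, 1440 and 2120 kb. Both ES libraries left the stretch from 5680 to 5880 kb outside any domain, while the gap from 2160 to 2360 kb was found in the first ES library only.

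The domain with the most shared places lay on chromosome 8 (chr8:43000001-49200000), again with its start at a recurring position. Both Th2 libraries had it whole, 6200 and 6240 kb wide. The first ES library placed 8 inner edges and the second 9, and 8 of them lay at identical positions in both. These were 46360000, 46440000, 47080000, 47240000, 48040000, 48520000, 48800000 and 49120000. Some of them are the borders of a single gap, as 46360000 and 46440000 are. Between them both ES libraries had domains of 640, 800 and 320 kb in the same places. The last of these edges was a junction in both, the end of the 320 kb domain and the start of one that ran past the end of the Th2 domain.

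Another chromosome 3 domain (chr3:69800001-75840000, 6040 kb) was laid out in 3 ES domains by both libraries. They measured 3040, 2080 and 800 kb in the first ES library and 3080, 2080 and 840 kb in the second. On chromosome 2 (chr2:84280001-90160000, 5880 kb, identical ends in both Th2 libraries) the ES libraries each placed 5 edges, all within 40 kb of one of the other library. There an ES domain entered from before the Th2 start and ended 1160 kb inside in both libraries. It was followed by domains of 2520 and 1800 kb in the first ES library and 2520 and 1840 kb in the second. The authors' combined Th2 list also had 2 edges inside this domain, so it was whole in both Th2 libraries but not in that list. On chromosome 16 (chr16:72160001-77120000, 4960 kb) an ES domain ran from 920 kb before the Th2 start to 3120 kb inside in the first ES library and to 3080 kb inside in the second, and a further ES domain of 1360 or 1400 kb followed after a gap.

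Of the 11 domains with 3 or more shared places, the 6 with most are described, with ties given to the wider domain. The remaining 3 of these had 3 or 4 shared places. On chromosome 15 (chr15:53840001-57360000, 3520 kb) each ES library had 5 inner edges, of which 4 were placed alike, and ES domains covered 71.6% and 72.7% of it. The first ES library had no domain from 40 to 720 kb after its start, and the second had none in the first 600 kb. On chromosome 16 (chr16:7000001-10240000, 3240 kb, starting at a recurring position) ES domains of 1320, 520 and 1200 kb lay inside in the first ES library and of 1280, 480 and 1160 kb in the second. The authors' combined Th2 list had 2 edges inside this one as well. On chromosome 14 (chr14:22720001-25240000, 2520 kb) ES domains of 1680, 520 and 240 kb in the first library and 1680, 480 and 240 kb in the second shared 3 identical inner edges.

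The 205 domains were wide as a group, with a median of 1200 kb (quartiles 720 and 1880 kb, range 280 to 8120 kb), against 560 kb (quartiles 360 and 960 kb, range 160 to 6280 kb) for the 700 other replicated domains. They covered 314.5 Mb, against 551.7 Mb for the others. A wider domain has more length in which an edge can meet the rule. The rule itself thus favours wide domains, and neither the width of the 205 nor the following climb is a separate result. The share that met the rule climbed with width. It was 4.26% of 235 replicated domains up to 400 kb (Wilson 95% interval 2.33 to 7.65%) and 16.8% of 309 up to 800 kb (13.1 to 21.4%). It was 31.4% of 140 up to 1200 kb, 37.8% of 82 up to 1600 kb, 40.3% of 62 up to 2000 kb and 47.2% of 53 up to 3000 kb. Above 3000 kb only 30.0% of the 80 domains of the first Th2 library were replicated, against 43.9 to 49.2% in the other classes. Of these 24 replicated domains 18 met the rule, or 75.0% (55.1 to 88.0%). These intervals cover counting error only.

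**Figure D2:**
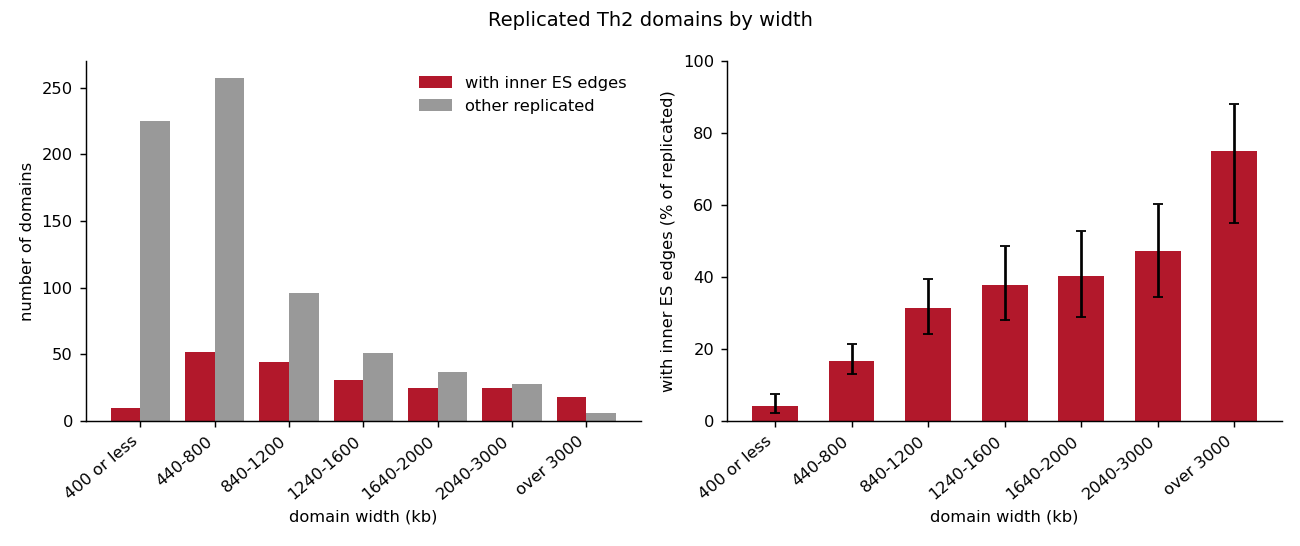
Left, number of replicated Th2 domains with inner ES edges (red) and of other replicated domains (grey) in 7 classes of width in kb. Right, share of replicated domains in each class that had inner edges of both ES libraries, with Wilson 95% intervals, which climbs from 4.26% to 75.0%.

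The number of inner ES edges was also counted per length. Per Mb lying more than 40 kb from the ends, replicated Th2 domains up to 400 kb held 0.4 inner edges of either ES library. From 400 to 2000 kb the values lay between 0.48 and 0.573 in the first ES library and between 0.537 and 0.591 in the second. From 2000 to 3000 kb they were 0.423 and 0.478, and above 3000 kb 0.615 and 0.568. The density therefore did not climb steadily with width in either ES library.

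Most of the domains held few inner edges. The first ES library placed 339 inner edges in them and the second 352. Both borders of a gap inside a domain count as separate inner edges and places, so these numbers overstate the number of interruptions. In the first, 114 domains had 1 inner edge, 65 had 2 and 26 had 3 or more. In the second, 115 had 1, 57 had 2 and 33 had 3 or more. Both libraries had the same number in 151 domains (73.7%), the first had more in 25 and the second in 29. In 97 domains (47.3%, median width 840 kb) each library had exactly 1 inner edge. In 19 (median width 2360 kb) each had 3 or more.

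The rule asked both ES libraries for an inner edge but not in the same place. Asking both for an edge in the same domain still favours domains with a shared place, so the following shares describe the chosen domains and are no independent measure of agreement. In 152 of the 205 domains (74.1%) at least 1 inner edge had the identical position in both libraries. In 186 (90.7%, Wilson 95% interval 86.0 to 94.0%) the closest inner edges lay within 40 kb. In the other 19 they lay 80 kb or more apart, with a median of 120 kb and a largest distance of 1960 kb. In these each library had an inner edge, but none was shared within 40 kb. In the 97 domains with a single inner edge in each library, 82 pairs of edges were within 40 kb and 61 were identical.

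Counted over edges, 271 of the 339 inner edges of the first ES library (79.9%) had an edge of the second within 40 kb. Of the 352 inner edges of the second, 296 (84.1%) had one of the first. In the other replicated domains, which by the rule lack an inner edge of at least 1 ES library, 14.1% of 71 and 16.2% of 74 inner edges had a match. The high share in the 205 and the low share in the others are both shaped by how the domains were chosen. Over all 905 replicated domains, without that choice, 281 of 410 inner edges of the first ES library (68.5%) and 308 of 426 of the second (72.3%) had a match. Over all edges of the ES lists the shares were 78.4% of 2887 and 78.0% of 2990. Inner edges of replicated Th2 domains were thus matched less often than ES edges in general, a difference that was not tested.

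**Figure D3:**
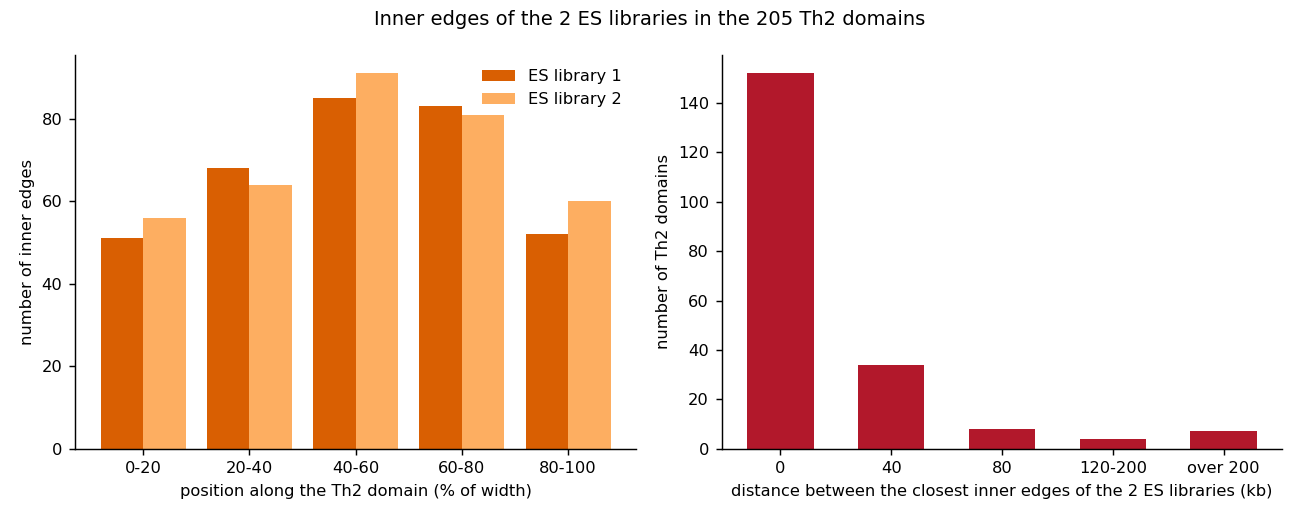
Left, number of inner edges of the first (dark) and second (light) ES library in 5 equal parts of the Th2 domain from start to end. Right, number of the 205 domains by the distance between the closest inner edges of the 2 ES libraries, which is 0 kb in 152 domains and over 200 kb in 7.

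Inner edges lay all along the domains. When each domain was cut in 5 equal parts, these held 51, 68, 85, 83 and 52 edges of the first ES library from start to end, and 56, 64, 91, 81 and 60 of the second. The outermost parts are lowered by the 40 kb margin of the rule. The median distance from the nearer end was 320 kb in both libraries, and 66 and 68 edges lay 120 kb or less from an end.

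Division in the strict sense, with several ES domains in place of 1 Th2 domain, held for only part of the set. In 111 domains (54.1%, median width 1680 kb) both ES libraries had 2 or more domains reaching over 40 kb into the Th2 domain, and in 16 both had 3 or more. In 73 domains (35.6%, median width 840 kb) both ES libraries had a single such domain, and the inner edge was where that domain stopped or began. The rest of those Th2 domains lay outside any ES domain or was reached by another by 40 kb at most. In the other 21 the libraries differed. The label of domains subdivided in ES cells therefore fits 111 of the 205, and the whole set is called Th2 domains with inner ES edges here. ES domains covered a median of 94.7% and 96% of the 111, and 77.8% of the 73 in both libraries. The closest inner edges of the 2 libraries were within 40 kb in 109 of the 111 and in 59 of the 73.

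The ES domains could lie inside the Th2 domain or run past its ends. In 33 of the 205 domains (16.1%) both ES libraries had 2 or more domains inside and none that ran more than 40 kb past an end. In 40 both had 1 domain inside and none running past. In 92 (44.9%) both had a domain that ran past an end. Of these 92, both libraries had 2 or more domains over the Th2 domain in 64 and a single one in 19. The libraries differed in layout in the remaining 40. Running past an end was common among the other replicated domains too. It was seen in 52.7% and 54.1% of the 205 in the first and second ES library, against 58.6% and 56.7% of the 700 others. ES domains that crossed a Th2 end were thus slightly less frequent in the 205 than in the others in both libraries. Among the others this count can hold Th2 domains that lie wholly inside 1 ES domain, which the rule excludes from the 205. The others are also narrower as a group, so the difference cannot be read as a trait of the 205.

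**Figure D4:**
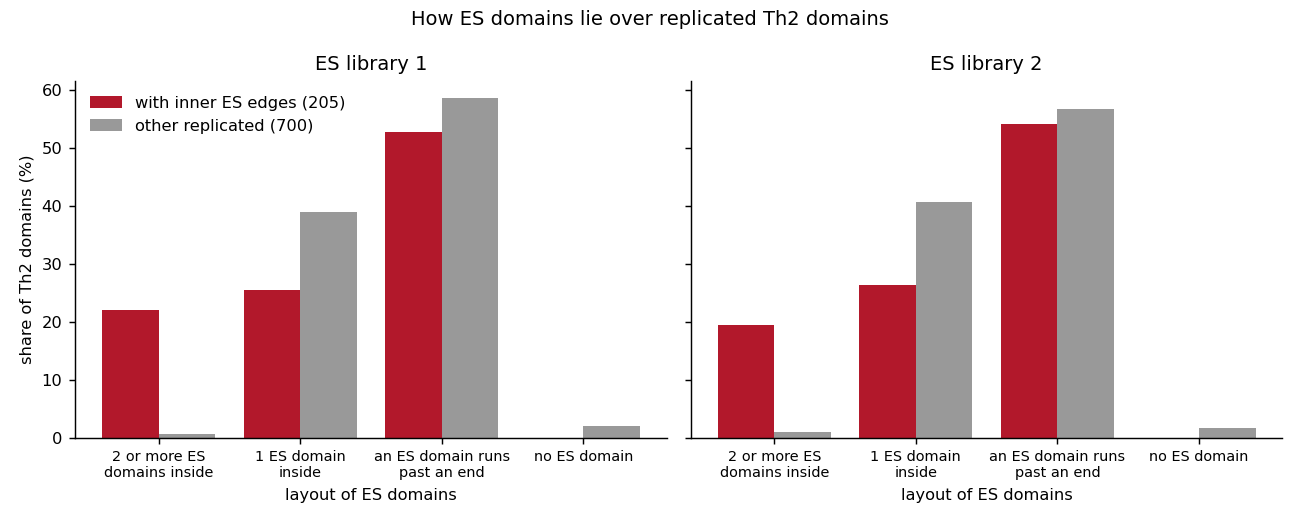
Share of the 205 Th2 domains with inner ES edges (red) and of the 700 other replicated Th2 domains (grey) in each layout of ES domains, for the first (left) and second (right) ES library. ES domains that run more than 40 kb past an end are seen in over 50% of both sets in both libraries.

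The clearest cases of 1 Th2 domain replaced by several ES domains were the 29 (14.1% of 205) in which both ES libraries had 2 or more domains inside, none ran past an end and both Th2 ends had an ES edge within 40 kb in both libraries. They were 840 to 8120 kb wide with a median of 1680 kb and lay on 16 chromosomes. An end at a recurring position was found in 4. Both ES libraries laid exactly 2 domains in 22 of them and 3 or more in 6. In all 29 the libraries shared an inner place within 40 kb, and in 26 an identical one. The authors' combined ES list had an inner edge in all 29, and their combined Th2 list in 3.

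In 8 of the 29, named here after their values were seen, ES domains covered the whole Th2 domain in both libraries, so that nothing but a new edge separated the layouts. The narrowest were chr13:40880001-41720000 and chr15:37040001-37880000, both 840 kb wide. Both ES libraries had the single inner edge at 41360000 in the chromosome 13 domain and at 37280000 in the chromosome 15 domain. The domain chr13:37520001-38760000 (1240 kb) was divided at 38080000 by both, and chr11:55320001-57240000 (1920 kb) at 55920000. In each of these 4 the edge was a junction, where 1 ES domain ended and the next began on the same grid line.

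The chromosome 2 domain chr2:25480001-26480000 (1000 kb) was divided at 26160000 by both ES libraries, but the authors' combined Th2 list also had an inner edge there. Division in 3 by both ES libraries was seen in chr2:172040001-173400000 (1360 kb), with edges at 172640000 and 172920000, and in chr9:27200001-30160000 (2960 kb), with edges at 28040000 and 29440000. The last of the 8, chr3:28920001-31560000 (2640 kb), had 1 inner edge in the first ES library and 3 in the second. The combined Th2 list had 2 edges inside it.

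Seamless junctions were the minority among the inner edges. In the first ES library 71 of 339 inner edges (20.9%) were junctions, and in the second 67 of 352 (19.0%). Over all edges of these lists the shares were 26.6% and 22.6%. The others bordered a stretch outside any ES domain. Of 261 inner places shared within 40 kb, 47 were junctions in both libraries, 181 bordered a gap in both and 33 differed. At least 1 junction shared by both was found in 44 domains (21.5%). Gaps with both borders inside the Th2 domain numbered 79 and 87, with a median width of 120 and 80 kb, that is 3 and 2 grid steps.

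ES domains therefore left parts of these Th2 domains uncovered. They covered a median of 88.9% (first ES library) and 90.2% (second) of each of the 205 domains, against 100% and 100% of each of the 700 others. Of the 205, 18.5% and 16.1% were covered completely, against 73.1% and 68.6% of the others. In all, 39.4 and 36.6 Mb of the 314.5 Mb (12.5% and 11.6%) lay outside any ES domain, and 26.8 Mb (8.52%) did so in both libraries. An inner edge that is no junction makes an uncovered stretch, so part of this difference follows from the rule.

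The least covered domains show the far end of that range. On chromosome 6 the domain chr6:56640001-57960000 (1320 kb) was 27.3% and 21.2% covered. A single ES domain entered from before its start and ended 360 kb inside in the first ES library and 280 kb inside in the second. On chromosome 2 (chr2:32240001-32800000, 560 kb) 21.4% and 35.7% were covered by an ES domain that ended 120 kb inside in the first and 200 kb inside in the second. On chromosome 12 (chr12:70800001-71320000, 520 kb) coverage was 38.5% and 46.2%, and on chromosome 4 (chr4:137240001-137880000, 640 kb) 43.8% in both. The combined Th2 list had an inner edge in the chromosome 4 domain. Each of these 4 held a single ES domain in each ES library, so in both libraries a large part of them belonged to no ES domain. The authors' combined ES list differed from this in most of them. It covered 90.9% of the chromosome 6 domain, 100% of the chromosome 2 domain and 81.2% of the chromosome 4 domain. Only in the chromosome 12 domain did its cover stay low, at 46.2%.

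The narrowest domains with an identical inner edge in both ES libraries were 280 or 320 kb wide. The edge lay at 78600000 in chr15:78440001-78720000 and at 129600000 in chr1:129360001-129680000, and in both an ES domain from the left ended there. In chr7:132560001-132880000 the ES libraries ended a domain 240 kb inside, and the next began there in the first library and 40 kb further on in the second. In chr10:120720001-121040000 both ES libraries began a domain 80 kb inside and ended it 40 kb past the Th2 end. At this width an inner edge is only 2 or 3 grid steps from an end, and a shifted end and a new edge cannot be told apart.

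The outer ends of the Th2 domains were often edges in ES cells too, which the rule did not ask for. Of the 410 ends of the 205 domains, 246 (60.0%, Wilson 95% interval 55.2 to 64.6%) had an edge of the first ES library within 40 kb and 241 (58.8%, 54.0 to 63.4%) one of the second. Of the 1400 ends of the 700 others, 891 (63.6%, 61.1 to 66.1%) and 917 (65.5%, 63.0 to 67.9%) did. Both ends had an ES edge in 38.0% and 36.6% of the 205, against 38.3% and 41.4% of the others. Neither end had one in 37 and 39 of the 205, against 77 and 73 of the 700.

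The shares were slightly lower in the set with inner edges, in both ES libraries. They come from the same edge lists as the rule and were not tested. An ES end that lies 80 kb or more inside a Th2 end counts as an inner edge and leaves that end without an ES edge, unless another edge is near, so the rule itself lowers the share in the 205. When inner edges needed no margin, the share averaged over the ES libraries was 67.1% in the 365 domains then kept, against 59.4% under the rule. An ES edge 40 kb inside an end then counted both as an inner edge and as an edge at that end. The higher share thus follows in part from that setting and does not measure how far the rule lowers the share. In both sets and both ES libraries the share was lowest in domains up to 400 kb, and the sets differ in width, so the classes of width were set side by side. From 400 to 800 kb 47.1% of ends had an ES edge in each library in the 52 domains with inner edges, against 65.4% and 64.0% in the 257 others. From 1200 to 1600 kb the shares were 74.2% and 69.4% for 31 domains, against 78.4% and 77.5% for 51 others. From 2000 to 3000 kb they were 64.0% and 46.0% for 25 domains, against 73.2% and 80.4% for 28 others. In each of the 7 classes and in both ES libraries the share was lower in the domains with inner edges, which numbered 10 in the narrowest class. In the widest class the others numbered 6.

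**Figure D5:**
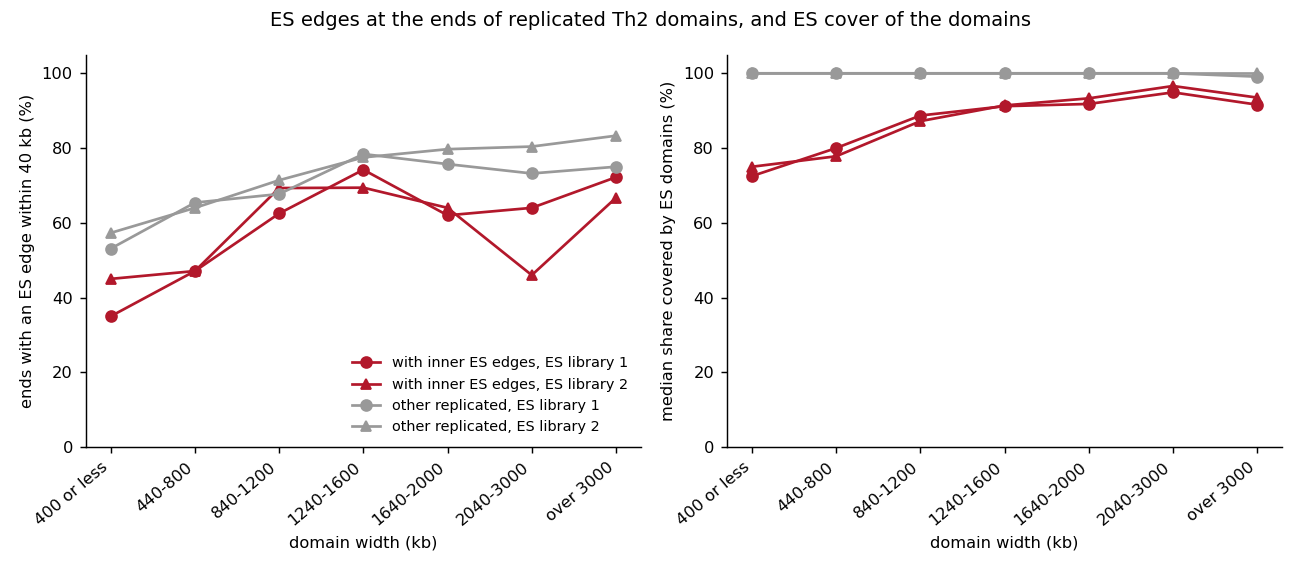
Left, share of domain ends with an ES edge within 40 kb. Right, median share of a domain covered by ES domains. Both are shown by width class in kb for the Th2 domains with inner ES edges (red) and the other replicated Th2 domains (grey), in the first (circles) and second (triangles) ES library. The red points lie below the grey points of the same library in both panels in every class.

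Counted per end, 210 of the 410 had an ES edge in both ES libraries, 67 in 1 of them and 133 in neither. All 4 checks, both ends in both ES libraries, were met by 59 of the 205 domains (28.8%), against 205 of the 700 others (29.3%). None was met by 23 (11.2%), against 44 (6.29%).

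The domains were spread over all 20 chromosomes of the lists, with 4 to 21 on each. Chromosome 2 had the most, 21 of 85 replicated domains. The share of replicated domains with inner ES edges ran from 12.0% on chromosome 10 to 36.6% on chromosome 3, with a median of 20.1%. On chromosome 3 that was 15 of 41 domains covering 33.9 Mb, on chromosome 16 12 of 35 and on the X chromosome 5 of 24. These shares rest on 23 to 85 replicated domains a chromosome and were not tested.

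Some of the domains were neighbours. In the first Th2 list 28 consecutive pairs were formed, with 50 of the 205 domains in such runs. The pairs that an equal number of other domains would form were not counted, so no clustering can be read from this. The longest run had 5 domains and spanned chromosome 8 from 93680001 to 108760000, with the widest domain of the set in its middle. On both sides its members were 2640, 2000, 1040 and 1120 kb wide, and each of the 5 held 1 inner place shared by the ES libraries within 40 kb. Of the 205, 44.4% touched a neighbouring Th2 domain at both ends and 16.1% at neither, against 53.3% and 11.0% of the others.

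The authors' lists named as combined for each cell type gave a further reading. How they were made is not stated, so it is not taken as independent. The combined Th2 list held 179 of the 205 domains (87.3%) with both ends within 40 kb, against 93.4% of the others. It had an inner edge in 14 of the 205 (6.83%), against 6 of the others (0.857%), although neither Th2 library's own list had one in the 205. The others are narrower as a group and these shares were not compared by width, so the difference cannot be read as a trait of the 205. These 14 were 640 to 5880 kb wide with a median of 2260 kb. Of the 22 edges that the combined Th2 list placed inside them, 11 had an edge of both ES libraries within 40 kb. For these 14 domains the lack of a Th2 edge thus depends on which Th2 list is read. The combined ES list had an inner edge in 194 of the 205 (94.6%), against 77 of the others (11.0%). Of the 11 in which it had no inner edge, 6 were among those in which the ES libraries shared no inner place.

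The mirror rule, with the cell types exchanged, gave 245 of 1008 replicated ES domains with inner edges of both Th2 libraries (24.3%, median width 1160 kb), beside 205 of 905 (22.7%) for the Th2 domains. By width the 2 sets differed in the widest class. Above 3000 kb the rule was met by 18 of 24 replicated Th2 domains (75.0%), beside 9 of 27 replicated ES domains (33.3%). These 24 were 30.0% of the Th2 domains of that width, a lower share than in any other class. From 2000 to 3000 kb the rule was met by 47.2% of the Th2 and 43.8% of the ES domains, and up to 400 kb by 4.26% and 1.44%. Among ES domains the shares were 43.2% from 1200 to 1600 kb and 35.0% from 1600 to 2000 kb, with no steady climb. These differences were not tested. Of the 205 Th2 domains, 59 (28.8%) overlapped such an ES domain by more than 40 kb. The share was not counted for the other replicated Th2 domains, which are narrower as a group, so it cannot be read as a trait of the 205. The overlap does not show whether the inner edges of either cell type lay within it.

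Near the thresholds of the rule the lists held many domains. In 30 of the 205 the deepest inner edge of at least 1 ES library lay 80 kb from an end, just past the margin, among them chr1:108320001-108960000 and chr1:129360001-129680000. In 160 of the other replicated domains both ES libraries had an edge inside, but the deepest edge of at least 1 lay 40 kb from an end and did not count. Among them were chr1:80560001-81320000 and chr1:88240001-88480000. The ends of the 2 Th2 libraries were identical in 105 of the 205 and 40 kb apart in 100. A further 35 domains had inner edges of both ES libraries but Th2 ends 80 kb apart, among them chr1:7000001-10440000 (3440 kb), whose deepest inner edges lay 1240 and 1440 kb from an end.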

How the data were processed

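Domain starts and ends in base pairs were used as deposited by the authors, in 1 list for each of the 4 Hi-C libraries and 2 combined lists. Reads were mapped to mm9 and Bowtie2 was used, per the submitters' processing notes. The sources used here do not name the domain caller or say how lists were combined. Lists give no contact counts, so depth is unknown. Starts are printed 1-based and ends lie on a 40 kb grid, except for last domains of chromosomes.

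An edge is any domain start or end. An inner edge lies more than 40 kb from both ends of the domain that holds it. Edges within 40 kb count as the same place. Wilson 95% intervals cover counting error only. The search was run on simulated lists, where it returned all 200 planted domains and no others. Apart from the planted edges, the simulated ES domains followed the Th2 domains, with ends moved by 40 kb at most. The run therefore checks only that the rule is applied as stated, and not how it behaves on the real lists. Alternatives were other distances (0 and 80 kb), the second Th2 library as the base, a shared place in both ES libraries, the combined lists, each library left out and, chosen after seeing the data, no recurring edges. Named domains were the 6 widest, the 6 with most shared places, the 4 least covered, the 4 narrowest with an identical inner edge and examples beside each threshold. The domains and the rules were chosen with earlier results of these data known. Genes and expression files were not used here, as no mm9 annotation was at hand. Software was Python 3.11.15 with numpy 2.4.6, pandas 2.3.3, scipy 1.17.1 and matplotlib 3.10.9.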

Additional observations from a re-analysis of the deposited data

How the results depend on the processing

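The count of 205 Th2 domains was 105 when Th2 ends had to be identical, 365 with no margin for inner edges and 750 with the authors' combined lists, where no replicate is asked. Leaving out 1 library gave 263 to 563, the higher values without a Th2 library, since no match could then be asked. It stayed between 175 and 240 under the other distances, the second library, the shared place and without recurring edges. The share with an inner place shared by the ES libraries (90.7%) was 94.6% at 80 kb and, by construction, 100% when a shared place was required. It was 90.4 to 92.0% without 1 Th2 library, and no value exists without an ES library. The share of outer ends with an ES edge, averaged over the ES libraries (59.4%), was 67.1% with no margin, 55.2% with the combined lists and 68.3% at 80 kb. It was 52.2 to 59.8% without 1 library. The mirror count of 245 ES domains was 107 with identical ends, 694 with the combined lists and 311 to 555 without 1 library. The causes of shifts not explained by construction were not tested. The 40 kb grid, 2 libraries a cell type and the unknown depth limit how finely a shifted end and a new edge can be separated. No paired analysis was possible because the results come from no test.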
